A study of Mus musculus with 14 samples.

Results

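The subunits of the mitochondrial respiratory chain and of the ATP synthase were examined in murine Th1 rep cells, CD4+ T helper cells that had been activated repeatedly under Th1 conditions. Genes were taken when their single gene symbol on the array began with Nduf followed by a, b, c, s or v and a digit (complex I), was Sdha, Sdhb, Sdhc or Sdhd (complex II), or began with Uqcr (complex III), with Cox, a digit between 4 and 8 and a, b or c (complex IV), or with Atp5 (complex V). This gave 79 of the 18193 genes with 1 symbol, namely 35 of complex I, 4 of complex II, 8 of complex III, 15 of complex IV and 17 of complex V, and 75 of them were among the 10916 genes tested. Symbols such as Cox4i1, Cyc1 and Ndufab1 do not match and were handled apart.

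The series holds 14 Affymetrix mouse arrays of total RNA, and each antagomir was measured on 2 of them 36 h after treatment, on 2 after 48 h and on 3 after 72 h. Naive CD4+ T cells came from 6- to 10-week-old OT-II mice, which carry a transgenic T cell receptor for an ovalbumin peptide, and were stimulated every 6 days with irradiated antigen-presenting cells, IL-12 (5 ng/ml), anti-IL-4 (10 µg/ml) and, from the later rounds on, IL-2 (10 ng/ml). The Th1 rep cells were then treated for 1.5 h with 1 µM Antagomir-31, a cholesterol-coupled antisense oligonucleotide against miR-31, or with 1 µM Antagomir-SCR, a control oligonucleotide of unrelated sequence, and were reactivated with plate-bound anti-CD3 and anti-CD28 (3 µg/ml each). All groups share the mouse line, the cytokines and the reactivation, and differ in the antagomir and the time. Whether replicates were separate cultures is not stated in the sources used here, and p-values therefore reflect the spread between these arrays alone, which may be technical.

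Complex I oxidizes NADH and complex II oxidizes succinate, both pass electrons through ubiquinone to complex III, cytochrome c carries them on to complex IV, which reduces oxygen, and complex V uses the proton gradient to make ATP. Nearly all subunits of these complexes are encoded in the nucleus, while a small set is encoded by mitochondrial DNA. Activated T cells enlarge their mitochondria and use glycolysis and respiration side by side. Several complex IV subunits exist as isoforms that differ by tissue, and Cox6b2, Cox7b2 and Cox8c are known from the testis, Cox6a2, Cox7a1 and Cox8b from heart and skeletal muscle.

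Since Antagomir-31 is complementary to the mature miR-31-5p, that sequence is shown with its seed (bases 2 to 8) in capitals. It is on chr4:88910614-88910635, minus strand. None of the 79 genes was on the list of putative miR-31 targets that accompanies the study (0 of 79).
mmu-miR-31-5p: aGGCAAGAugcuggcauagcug
The promoters of Cox6b2, which had the largest log2 fold change at 72 h, of its ubiquitous isoform Cox6b1, and of Ndufa4, the other gene called as lower at 72 h, are shown for comparison. Each runs from 250 bases before to 50 bases after the start site. Capitals mark the letters CCAAT, on either strand (ATTGG on the other), and GGGCGG. All sequences are those of RefSeq for build GRCm38.p6. The Cox6b2 window is chr7:4753045-4753344, the Cox6b1 window chr7:30626065-30626364 and the Ndufa4 window chr6:11907401-11907700, all on the minus strand.
Cox6b2: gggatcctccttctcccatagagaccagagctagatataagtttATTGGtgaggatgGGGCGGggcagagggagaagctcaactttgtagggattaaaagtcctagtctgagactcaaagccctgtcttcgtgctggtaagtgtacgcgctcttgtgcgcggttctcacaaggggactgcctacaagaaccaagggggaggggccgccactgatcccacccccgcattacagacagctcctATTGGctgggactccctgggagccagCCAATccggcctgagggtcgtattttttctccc
Cox6b1: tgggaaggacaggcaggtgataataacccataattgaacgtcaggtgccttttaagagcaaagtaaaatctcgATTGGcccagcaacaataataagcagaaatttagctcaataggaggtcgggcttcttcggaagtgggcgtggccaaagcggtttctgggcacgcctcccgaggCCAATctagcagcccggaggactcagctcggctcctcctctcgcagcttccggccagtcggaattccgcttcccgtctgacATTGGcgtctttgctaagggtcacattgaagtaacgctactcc
Ndufa4: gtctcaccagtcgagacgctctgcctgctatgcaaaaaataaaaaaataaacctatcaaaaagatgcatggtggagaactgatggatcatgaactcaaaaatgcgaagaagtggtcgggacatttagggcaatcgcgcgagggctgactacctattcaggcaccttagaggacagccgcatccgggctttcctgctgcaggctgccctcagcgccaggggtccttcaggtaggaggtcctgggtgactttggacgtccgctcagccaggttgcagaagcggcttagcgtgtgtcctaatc
In the Cox6b2 window, CCAAT or its complement starts at -206, -9 and 17 relative to the start site and GGGCGG at -193, and in the Cox6b1 window CCAAT or its complement starts at -177, -74 and 7. The Ndufa4 window holds neither of these, nor the cores searched for nuclear respiratory factor 1 (GCATGCGC), ETS factors (CCGGAAGT) and YY1 (AAGATGGC), 3 motifs known from promoters of mitochondrial genes. Of the 79 genes, 66 had a promoter in the RefSeq table. CCAAT was found on either strand in 28 of the 66 windows (42.4%), against 41.1% of 27025 promoters of all genes, and GGGCGG in 28 (42.4%), against 38.2%. The nuclear respiratory factor 1 core was found in 9 windows (13.6%, all promoters 3.05%), the ETS core in 5 (7.58%, all promoters 4.31%) and the YY1 core in 9 (13.6%, all promoters 3.19%), and at least 1 of these 3 cores in 22 (33.3%, all promoters 9.91%). A match says only that the letters are present.

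Most subunits were bright on these arrays. The values are RMA intensities, and a gene's value is that of its probe set with the highest mean log2 over all arrays. Of the 79 genes, 67 were at or above the 90th percentile of all genes by that mean and 68 had a mean log2 of at least 9, and the median percentile was 96.4. The median mean log2 was 10.71 for complex I, 10.22 for complex II, 11.09 for complex III, 10.74 for complex IV and 11.84 for complex V, against 5.55 for all genes. The highest and lowest tested members were Ndufa1 (12.08) and Ndufa4l2 (5.74) in complex I, Sdhb (10.98) and Sdhc (8.71) in complex II, Uqcrb (12.85) and Uqcr11 (10.09) in complex III, Cox6a1 (13.17) and Cox6b2 (5.19) in complex IV, and Atp5g3 (12.51) and Atp5mpl (10.54) in complex V, all as mean log2 intensities. The affinity of probe sets differs, so these levels do not rank the amounts of different mRNAs.

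Members that did not reach the brightest 60% of genes, whose lowest mean log2 was 4.792, were Cox7a1 (4.38), Cox8b (4.75), Cox7b2 (2.68) and Ndufb4 (3.52). Intensities over the 14 arrays were 13.1 to 33.6 for Cox7a1, 21.6 to 33.9 for Cox8b, 5.58 to 7.76 for Cox7b2 and 10.0 to 13.3 for Ndufb4. For Ndufb4, an accessory subunit of complex I, other probe sets of the array carry several symbols and were not used, so its low value belongs to 1 probe set and not to the gene as a whole. Markers of the tissues in which the isoforms are known were low too. Of 5 testis germ cell markers the highest had a mean log2 of 5.97 and of 6 muscle markers the highest had 6.57. By comparison, 3 of the 5 T cell markers found and 3 of 6 Th1 markers were at 9 or above. The other T cell markers were Cd3e (8.93) and Cd4 (7.67), and the other Th1 markers Il12rb2 (7.64), Cxcr3 (5.82) and Hlx (5.69). Cxcr3 and Hlx thus lay below the highest testis and muscle markers. B cell markers reached 4.86 at most, those of macrophages 6.13 and those of dendritic cells 5.78. Of the 4 markers of CD8 T cells and NK cells found, Klrk1, which encodes an activating receptor, was bright (11.5), while Cd8a (5.06), Cd8b1 (4.22) and Ncr1 (4.03) were low. Their summed intensity at 72 h was 2376 to 2530 with Antagomir-31, against 2529 to 2864 with Antagomir-SCR. Klrk1 carried this sum, with a mean of 2364 with Antagomir-31, against 2628 with Antagomir-SCR. The means with Antagomir-31 and Antagomir-SCR were 36.1 and 36.1 for Cd8a, 27.3 and 28.6 for Cd8b1, and 16.6 and 17.9 for Ncr1. The part of this sum in the results at that time was not tested.

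At 36 h and at 48 h, no subunit was called between the treatments. In limma, 0 of 75 subunits passed an adjusted p under 0.05 (Benjamini-Hochberg over 10916 genes) at 36 h, where 0.0% of all genes did, and 0 of 75 at 48 h, where again 0.0% did. Unadjusted p-values under 0.05 were found for 1 subunit at each time, against 329 higher and 256 lower genes of all those tested at 36 h and 275 higher and 379 lower genes at 48 h. At 36 h this was Cox7c, a small complex IV subunit, with 53.1 and 54.9 with Antagomir-31, against 66.1 and 72.6 with Antagomir-SCR. Its arrays did not overlap, and its log2 fold change was -0.36 (standard error 0.097, limma adjusted p = 0.53). With its other probe set the log2 fold change at 36 h was 0.01. At 48 h it was Cox6a2, the muscle form of a complex IV subunit, with 48.3 and 59.3 with Antagomir-31, against 66.5 and 61.1 with Antagomir-SCR, and a log2 fold change of -0.25 (standard error 0.095, limma adjusted p = 0.74). The median log2 fold change of the 75 subunits was 0.0024 at 36 h (all genes 0.00076) and -0.0069 at 48 h (all genes -0.0075).

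At 72 h, 3 of the 75 subunits passed the threshold, against 1.1% of all genes tested. Cox6b2 and Ndufa4 were lower and Uqcrc2, a core protein of complex III, was higher in Antagomir-31 treated cells. Of all genes, 54 were higher and 66 lower, and this split was 42 higher and 103 lower when arrays were centred on their median and 78 higher and 60 lower after quantile normalization. Among the subunits, 29 had a higher and 46 a lower mean with Antagomir-31, the median log2 fold change was -0.022 (all genes -0.0089), and an unadjusted p under 0.05 was found for 5 higher and 18 lower ones. Of the 10916 genes tested, 53.8% had a lower mean, and 781 higher and 1156 lower ones had such a p. The 4 complex II genes all had a lower mean (median -0.049), as did 6 of 8 in complex III (median -0.11) and 12 of 17 in complex V (median -0.053). In complex I, 18 of 34 had a lower mean (median -0.003), and in complex IV 6 of 12 (median 0.002). The count of 3 calls was 0 without Antagomir-31 replicate 3 or Antagomir-SCR replicate 4 and 1 without Antagomir-31 replicate 2 or Antagomir-SCR replicate 3, and without Antagomir-31 replicate 2 the median was -0.069 in complex III and -0.033 in complex V.

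The arrays of both treatments often stood apart at 72 h without passing the threshold. All 3 Antagomir-31 arrays were below all 3 Antagomir-SCR arrays for 28 of 75 subunits, against 14.6% of all genes, and above them for 8 of 75, against 9.52%. The 28 were 10 of complex I, 2 of complex II, 5 of complex III, 5 of complex IV and 6 of complex V. Among genes with a mean log2 of at least 9, the arrays were all lower for 25 of 68 subunits (36.8%), against 19.1% of 2601 genes. At this time the upper quartile of all intensities was also lower with Antagomir-31, at 129.1 to 130.0, against 131.4 to 133.2 with Antagomir-SCR. The median of all intensities was higher with Antagomir-31, at 28.3 to 28.42, against 27.92 to 28.25 with Antagomir-SCR. The summed intensity of the 5 T cell markers was 11123 to 11476 with Antagomir-31, against 11579 to 11732 with Antagomir-SCR. The sum was carried by Cd3d, with a mean of 5163 with Antagomir-31, against 5485 with Antagomir-SCR, and Cd3g, with 2808 with Antagomir-31, against 2970.5 with Antagomir-SCR, while the means of Cd3e, Cd4 and Cd28 were slightly higher with Antagomir-31. The part of the quartile, of the median and of these markers in the counts of subunits was not tested. The 3'/5' log2 ratio of the actin controls, a sign of RNA integrity, at 72 h was 0.21 to 0.27 on the Antagomir-31 arrays, overlapping the 0.21 to 0.24 on the Antagomir-SCR arrays. In bulk RNA, fewer cells of a type and less RNA per cell cannot be told apart.

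**Figure D1:**
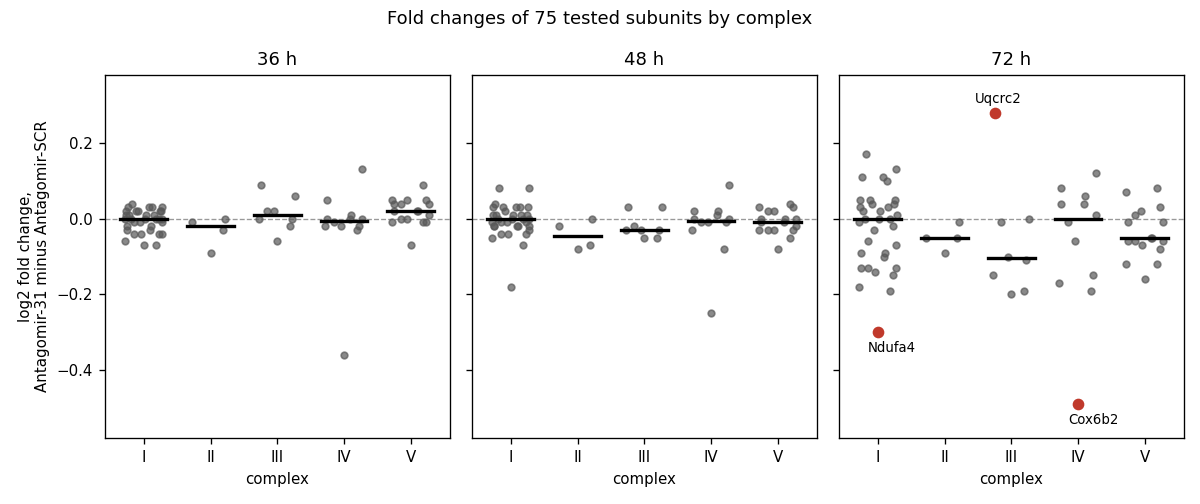
Log2 fold change (Antagomir-31 minus Antagomir-SCR) of the 75 tested subunits in complexes I to V at 36 h, 48 h and 72 h, with 1 point per gene and a bar at the median of each complex. Named red points passed an adjusted p under 0.05 in limma, which was the case for Uqcrc2 (0.28), Ndufa4 (-0.30) and Cox6b2 (-0.49) at 72 h and for no subunit at 36 h or 48 h.

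Cox6b2, the testis form of a complex IV subunit on the intermembrane side, showed the largest log2 fold change of all 75 subunits at 72 h. Its intensity at 72 h was 90.9, 72.3 and 85.2 with Antagomir-31, against 110.3, 117.3 and 120.8 with Antagomir-SCR. The highest Antagomir-31 array was below the lowest Antagomir-SCR array. The means were 82.8 ± 9.55 with Antagomir-31 and 116.1 ± 5.35 with Antagomir-SCR (SD, n = 3 each), and the log2 fold change was -0.49 (standard error 0.083, limma adjusted p = 0.022). At 36 h the values were 17.1 and 17.0 with Antagomir-31, against 18.1 and 15.1 with Antagomir-SCR, and at 48 h 19.5 and 18.1 with Antagomir-31, against 18.1 and 17.2 with Antagomir-SCR. At these times Cox6b2 was at percentiles 28.3 and 32.3 of all genes, with mean log2 values of 4.07 and 4.19 that lay below the lowest mean of a tested gene, so it passed the filter through its level at 72 h. The effect at 72 h minus that at 48 h was -0.58 (standard error 0.131, unadjusted p = 0.00071, limma adjusted p = 0.21), so a difference between times was not called. The 48 h values were not shown to lie above background. Whether an effect was present at 48 h can therefore not be read from them, and this comparison cannot decide it.

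Cox6b1, the ubiquitous form of the same subunit, did not show this. Its intensity at 72 h was 4551, 4765 and 4676 with Antagomir-31, against 4602, 4589 and 4450 with Antagomir-SCR, and the arrays overlapped. The log2 fold change was 0.04 (standard error 0.040, limma adjusted p = 0.68). The call of Cox6b2 was kept in 19 of 26 alternatives, with a log2 fold change between -0.57 and -0.40. Apart from the fits with a replicate block, it was lost without Antagomir-31 replicate 3 (limma adjusted p = 0.069), without Antagomir-SCR replicate 3 (0.083) or 4 (0.058), without a filter on low values (0.056) and with only the 72 h arrays (0.084), and 1 probe set stands for the gene.

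**Figure D2:**
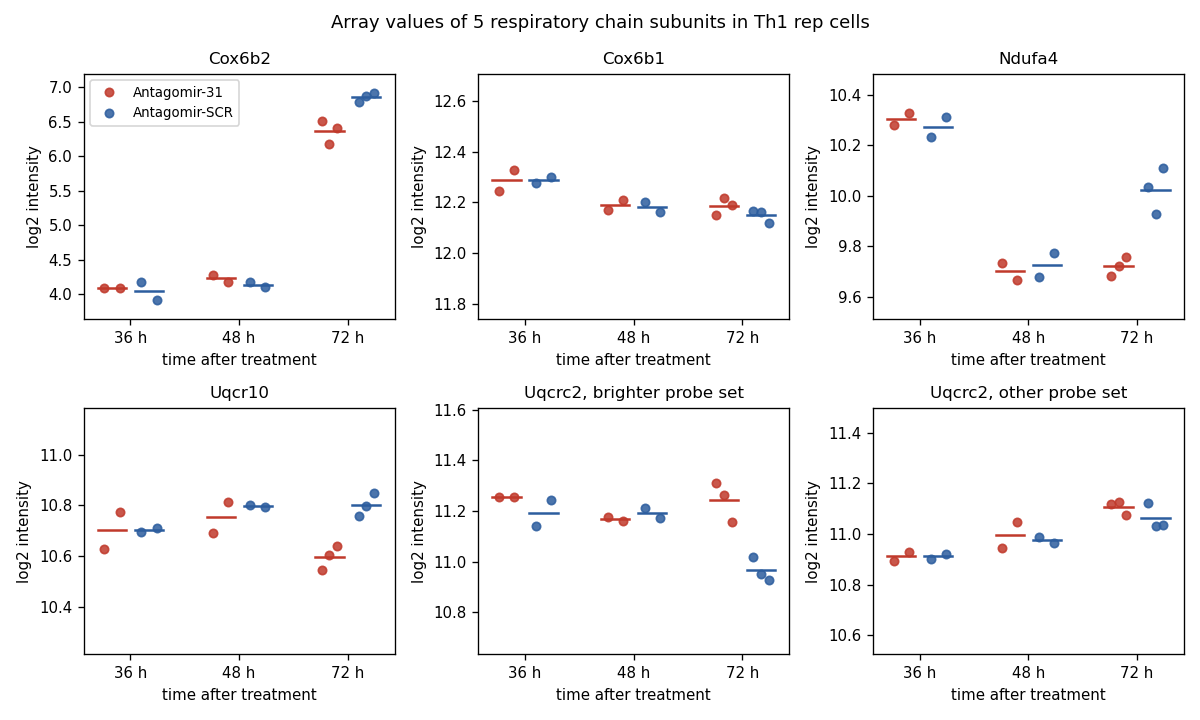
Log2 intensity on each array (points) and group mean (bars) for Cox6b2, Cox6b1, Ndufa4, Uqcr10 and both bright probe sets of Uqcrc2, with Antagomir-31 left of Antagomir-SCR at each time and a scale of its own in each panel. At 72 h the treatments are apart for Cox6b2, Ndufa4, Uqcr10 and the brighter Uqcrc2 probe set, and they overlap for Cox6b1 and for the other Uqcrc2 probe set.

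Ndufa4 is named as a complex I subunit and is now also described as a subunit of complex IV. At 72 h its intensity was 822.3, 845.8 and 865.6 with Antagomir-31, against 1050.0, 974.8 and 1105.6 with Antagomir-SCR. The treatments did not overlap, and the means were 844.6 ± 21.7 with Antagomir-31, against 1043.5 ± 65.6 with Antagomir-SCR (SD, n = 3 each). The log2 fold change was -0.30 (standard error 0.052, limma adjusted p = 0.024). At 48 h the values were 853.1 and 813.1 with Antagomir-31, against 818.9 and 874.7 with Antagomir-SCR, and at 36 h 1243.9 and 1285.2 with Antagomir-31, against 1203.1 and 1270.4 with Antagomir-SCR. As deposited, the Antagomir-31 arrays at 72 h lay in the range of all arrays at 48 h, while the Antagomir-SCR arrays at 72 h lay between those at 48 h and those at 36 h. After quantile normalization over all arrays, the difference of 72 h minus 48 h was -0.24 with Antagomir-31 and 0.05 with Antagomir-SCR. The effect at 72 h minus that at 36 h was -0.34 (standard error 0.083, unadjusted p = 0.0014, limma adjusted p = 0.18). For Ndufa4l2, the paralog known as induced by hypoxia, intensities at 72 h were 53.4, 62.1 and 64.6 with Antagomir-31, against 55.2, 62.1 and 63.5 with Antagomir-SCR, and the log2 fold change was -0.01 (standard error 0.086).

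The Ndufa4 call was kept in 20 of 27 alternatives and, apart from a fit with a replicate block, was lost without Antagomir-31 replicate 2 (limma adjusted p = 0.12) or 3 (0.074), without Antagomir-SCR replicate 2 (0.063) or 4 (0.060), without a filter on low values (0.071) and with only the 72 h arrays (0.084). Ndufa4 also has 1 probe set.

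In complex III, opposite directions were found among the subunits at 72 h. Uqcrc2 had 2540, 2457 and 2285 with Antagomir-31, against 2074, 1982 and 1949.5 with Antagomir-SCR. Its Antagomir-31 arrays were all above its Antagomir-SCR arrays, and the log2 fold change was 0.28 (standard error 0.048, limma adjusted p = 0.024). The second Uqcrc2 probe set, of similar brightness, did not separate the treatments. It gave 2226, 2238 and 2155 with Antagomir-31, against 2232, 2092 and 2102 with Antagomir-SCR, and its log2 fold change was 0.04. The difference between both probe sets was 0.23 (standard error 0.053, limma adjusted p = 0.054). The Uqcrc2 call was kept in 16 of 26 alternatives. Apart from the fits with a replicate block, it was lost with the mean of all probe sets (0.16, adjusted p = 0.10), with the highest probe set on each array (0.18, adjusted p = 0.092), without a filter on low values (adjusted p = 0.075), with only the 72 h arrays (0.090), without Antagomir-31 replicate 2 (0.12) or 3 (0.085), and without Antagomir-SCR replicate 3 (0.095) or 4 (0.065).

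Smaller subunits of complex III had lower values at 72 h that did not pass the threshold. Uqcr10 had 1496, 1555 and 1596 with Antagomir-31, against 1732, 1778 and 1844 with Antagomir-SCR, and its log2 fold change was -0.20 (standard error 0.050, limma adjusted p = 0.072). All 3 of its probe sets separated the treatments in this direction, with log2 fold changes of -0.20, -0.15 and -0.28. Uqcrfs1, the Rieske iron-sulfur protein, had 2407, 2337 and 2446 with Antagomir-31, against 2674, 2665 and 2633 with Antagomir-SCR, and its log2 fold change was -0.15 (standard error 0.036, limma adjusted p = 0.067). Uqcrh, the hinge protein that binds the cytochrome subunit, had 3515, 3522 and 3732 with Antagomir-31, against 4101, 4153 and 4015 with Antagomir-SCR, and its log2 fold change was -0.19 (standard error 0.048, limma adjusted p = 0.078). For each of these values the treatments did not overlap. The second bright probe set of Uqcrh gave a log2 fold change of -0.11, with overlapping arrays. Uqcr10 passed the threshold in 5 of 27 alternatives and Uqcrfs1 in 3 of 27. Uqcr11 (-0.11), Uqcrq (-0.10) and Uqcrc1 (-0.01), the other core protein, had adjusted p-values of 0.35 to 0.92, and Uqcrb, which takes part in binding ubiquinone, had a log2 fold change of 0.00. Across the 8 genes, the median deviation of an array from the mean of its time was -0.096 to -0.038 on the 72 h Antagomir-31 arrays and 0.039 to 0.065 on the Antagomir-SCR arrays.

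Among the other complex IV isoforms, the ubiquitous form Cox8a had the smallest p at 72 h. It had 2968, 3175 and 3214 with Antagomir-31, against 3528, 3468 and 3552.5 with Antagomir-SCR, without overlap, and a log2 fold change of -0.17 (standard error 0.048, limma adjusted p = 0.096). Both bright Cox8a probe sets gave -0.17. The testis form Cox8c had 134.6, 123.7 and 135.8 with Antagomir-31, against 116.4, 122.5 and 124.6 with Antagomir-SCR, overlapping by 1 array, and a log2 fold change of 0.12 (standard error 0.048, limma adjusted p = 0.23). The muscle form Cox6a2 (0.06) and the ubiquitous form Cox6a1 (-0.01) had adjusted p-values of 0.73 and 0.95. Cox7a2 (-0.06), the form found in most tissues, and Cox7a2l (0.01), a factor of supercomplex assembly, had 0.48 and 0.92. Cox7c had 82.6, 87.8 and 81.9 with Antagomir-31, against 89.6, 94.4 and 103.3 with Antagomir-SCR, and its log2 fold change was -0.19 (standard error 0.080, limma adjusted p = 0.25).

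The 4 subunits of complex II had small negative log2 fold changes at 72 h. Sdhd, a membrane anchor, had 1341, 1388 and 1450.4 with Antagomir-31, against 1454, 1475.5 and 1519 with Antagomir-SCR, and its log2 fold change was -0.09 (standard error 0.041, limma adjusted p = 0.28). Sdha, the flavoprotein, had 1471, 1449 and 1487 with Antagomir-31, against 1515, 1543 and 1507 with Antagomir-SCR, and its log2 fold change was -0.05 (standard error 0.038, limma adjusted p = 0.53). Both were without overlap, and neither was called. Sdhc (-0.05), the other anchor, and Sdhb (-0.01), the iron-sulfur subunit, overlapped. For Sdhd, a second, dimmer probe set pointed the other way. It had 576.4, 536.5 and 504.8 with Antagomir-31, against 421.4, 452.8 and 453.5 with Antagomir-SCR, and its log2 fold change was 0.28, and with the mean of both probe sets the value of the gene was 0.10.

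In complex V no gene was called at 72 h in limma, and 3 lower genes had an unadjusted p under 0.05. Atp5e, the epsilon subunit of the catalytic head, had 2084, 2186 and 2147 with Antagomir-31, against 2324, 2383 and 2275 with Antagomir-SCR, and its log2 fold change was -0.12 (standard error 0.043, limma adjusted p = 0.17). Atp5l, subunit g of the membrane part, had 2905, 3223 and 3439 with Antagomir-31, against 3479, 3630 and 3522 with Antagomir-SCR, and its log2 fold change was -0.16 (standard error 0.061, limma adjusted p = 0.22). In both, all Antagomir-31 arrays were lower. The 3 genes that encode the same ring-forming subunit c gave log2 fold changes of 0.01 for Atp5g1, -0.12 for Atp5g2 and -0.05 for Atp5g3, with adjusted p-values of 0.95, 0.24 and 0.49, and the arrays of Atp5g2 and Atp5g3 did not overlap.

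Of the complex I subunits other than Ndufa4, none was called at 72 h, and unadjusted p-values under 0.05 belonged to 3 higher and 6 lower genes. Ndufb9, an accessory subunit of the membrane arm, had 2017, 2107 and 2141 with Antagomir-31, against 2325, 2272 and 2291 with Antagomir-SCR, and its log2 fold change was -0.14 (standard error 0.040, limma adjusted p = 0.11). Ndufb1, another one, had 389.2, 438.7 and 451.5 with Antagomir-31, against 483.4, 489.2 and 472.8 with Antagomir-SCR, and its log2 fold change was -0.18 (standard error 0.058, limma adjusted p = 0.14). With these probe sets, both genes were lower on every Antagomir-31 array. The second bright probe set of Ndufb9 had a log2 fold change of 0.03, with overlapping arrays. The difference between both Ndufb9 probe sets was -0.17 (standard error 0.056, limma adjusted p = 0.10). For Ndufa1, the brightest gene of the complex, the arrays overlapped and the log2 fold change rounded to 0. The 75 standard errors at 72 h ranged between 0.036 and 0.086.

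The direction at 72 h went with the type of probe set. Affymetrix names end in _at for probe sets designed to be unique, in _a_at for those shared by transcripts of 1 gene, and in _s_at or _x_at for those that may also match other genes. Among probe sets with a mean log2 of at least 6, the log2 fold change was negative for 46 of 52 _at probe sets of the subunits (88.5%), against 59.0% of the _at probe sets of all genes, with medians of -0.089 and -0.021. For the other types it was negative in 17 of 36 _a_at probe sets (all genes 61.6%), 11 of 17 _s_at (all genes 51.6%) and 12 of 26 _x_at (all genes 32.9%). At a mean log2 of at least 9 it was negative in 43 of 46 _at probe sets (93.5%), against 57.0% of those of all genes. The _at probe sets were lower in 20 of 24 cases in complex I, 3 of 3 in complex II, 5 of 5 in complex III, 5 of 7 in complex IV and 13 of 13 in complex V. At 36 h and 48 h the _at probe sets of the subunits had a negative value in 23 and 32 of 52, with medians of 0.0038 and -0.012. What sets the types apart in these arrays was not tested.

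**Figure D3:**
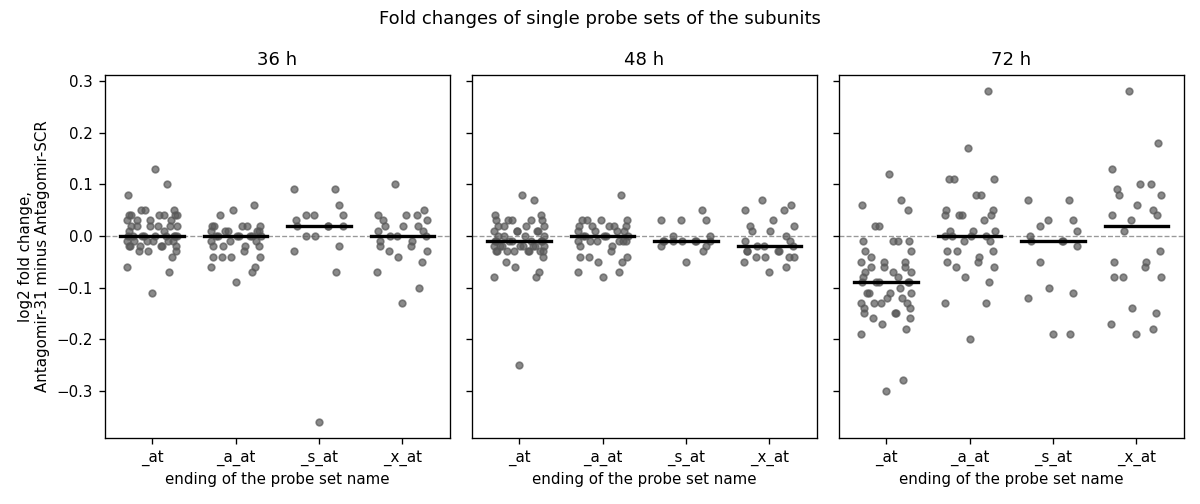
Log2 fold change (Antagomir-31 minus Antagomir-SCR) of single probe sets of the subunits with a mean log2 of at least 6 at 36 h, 48 h and 72 h, grouped by the ending of the probe set name, with a bar at the median. At 72 h the _at probe sets lie below 0 in 46 of 52 cases, and the other types spread on both sides of 0. Cox6b2, at a mean log2 of 5.19, is not included.

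Probe sets of the same gene could be compared for 39 subunits with 2 bright probe sets. At 72 h their log2 fold changes had opposite signs in 18 of 39 (46.2%), against 43.1% of 3249 genes. In a limma fit of the difference between both probe sets, 15 of 39 had an unadjusted p under 0.05 (38.5%), against 23.9% of all genes with such a pair, and 1 of 39 had an adjusted p under 0.05, against 0.616%. This was Sdhd, with -0.09 and 0.28 (difference -0.37, standard error 0.077, limma adjusted p = 0.049). The next ones, chosen after their values were seen, were accessory complex I subunits. Ndufb6 had -0.13 with its _at and 0.11 with its _a_at probe set, and Ndufb5 -0.13 with its _at and 0.11 with its _a_at probe set (limma adjusted p = 0.054 for both differences). The Ndufb5 _at probe set had 2391, 2460.0 and 2544 with Antagomir-31, against 2751, 2704 and 2647 with Antagomir-SCR, and its _a_at probe set 2712.5, 2698 and 2708.5 with Antagomir-31, against 2550.1, 2449 and 2516 with Antagomir-SCR. The arrays were apart in both, in opposite directions. At 36 h and at 48 h, 0 of 39 pairs had an unadjusted p under 0.05.

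Averaged over the 3 times, 0 of 75 subunits were called, against 0.0183% of all genes, and 2 higher and 7 lower ones had an unadjusted p under 0.05 (all genes 425 higher and 609 lower). The smallest p-values belonged to Cox7c (-0.19, standard error 0.053, limma adjusted p = 0.28) and Uqcrc2 (0.11, standard error 0.032, limma adjusted p = 0.30). The interaction of treatment with 72 h against 36 h was called for 0 of 75 subunits (0.0183% of all genes), and that with 72 h against 48 h for 0 of 75 (0.0366% of all genes). Unadjusted p-values under 0.05 for 72 h against 36 h were found for 1 higher and 7 lower subunits, against 467 higher and 717 lower genes in all. For 72 h against 48 h there were 3 higher and 3 lower subunits, against 519 and 585 genes. The smallest p belonged to Cox6b2, whose 48 h values were not shown to lie above background. Next came Uqcrc2 (0.30, standard error 0.076, limma adjusted p = 0.25), Ndufa4 (-0.28, standard error 0.083, limma adjusted p = 0.31) and Ndufb1 (-0.26, standard error 0.092, limma adjusted p = 0.39). An effect limited to 72 h was therefore not called for any subunit, although the calls within a time were made at 72 h alone.

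Levels of Cox6b2 also differed between times. The arrays of each time have nearly equal means and quartiles, unlike arrays of different times, so time and processing cannot be told apart, and differences between times are given without a test. As deposited, the mean log2 of Cox6b2 was 4.07 at 36 h, 4.19 at 48 h and 6.61 at 72 h. Every array of the last time was above all earlier ones, as deposited and after quantile normalization over all 14 arrays. The values at 36 h and 48 h were not shown to lie above background, so the size of the difference is not settled. The percentile of Cox6b2 on the array was 28.3 at 36 h, 32.3 at 48 h and 58.5 at 72 h. Cox6b1 stayed at percentiles 99.0 to 99.2. The summed intensity of the testis germ cell markers at 36 h was 118.0 to 120.5 (Antagomir-31) and 107.7 to 115.5 (Antagomir-SCR), at 48 h 99.3 to 102.5 (Antagomir-31) and 100.3 to 109.2 (Antagomir-SCR), and at 72 h 128.1 to 129.2 (Antagomir-31) and 125.7 to 133.3 (Antagomir-SCR). On every 72 h array this sum was above that of every 48 h array. As deposited, the same held for 64.1% of all genes tested, so the rise was not particular to these markers. The part of this sum in the Cox6b2 values was not tested.

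As deposited, all arrays at 48 h were above all arrays at 36 h for 4 of 75 subunits (15.0% of all genes) and below them for 19 of 75 (27.9% of all genes). All arrays at 72 h were above all arrays at 48 h for 57 of 75 subunits (64.1% of all genes) and below them for 1 of 75 (12.9% of all genes), which was Ndufa1. The median difference of the subunits was -0.055 between 36 h and 48 h (all genes -0.046) and 0.24 between 48 h and 72 h (all genes 0.33). Quantile normalization gives all arrays the same distribution and so removes a general shift by design. On that scale these medians were 0.013 and 0.019 (all genes 0.0067 and 0.0024). All arrays at 72 h were then above all arrays at 48 h for 25 of 75 subunits (32.1% of all genes). They were below them for 20 of 75 (31.9% of all genes). The subunits named next kept their direction on both scales. The difference of 48 h minus 36 h was -0.84 as deposited and -0.80 after quantile normalization for Cox8c, -0.57 and -0.51 for Ndufa4, and 0.60 and 0.65 for Cox7c. The Cox7c values belong to its dim probe set with a mean log2 of 6.34. Between 48 h and 72 h, Ndufb1 was higher by 1.04 as deposited and 0.71 after quantile normalization, and Sdhc by 0.90 and 0.61.

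By complex, the differences between 48 h and 72 h after quantile normalization had medians of 0.0027 in complex I, 0.31 in complex II, -0.095 in complex III, -0.025 in complex IV and 0.044 in complex V (all genes 0.0024). In complex II, Sdha (0.36), Sdhc (0.61) and Sdhd (0.26) were higher on all 72 h arrays and Sdhb (-0.10) was lower on all of them. As deposited, Sdhb was higher by 0.13, with all 72 h arrays above all 48 h arrays, so its direction depended on the scale. In complex III, Uqcrc1 (0.23) and Uqcrc2 (-0.30), the pair of core proteins, went apart, with Uqcrc2 at -0.14 with Antagomir-31 and -0.46 with Antagomir-SCR. As deposited, the difference for Uqcrc2 was -0.08, and the arrays of both times overlapped. These Uqcrc2 values belong to its brighter probe set. As deposited, its other probe set had 1968 to 2114 at 48 h and 2092 to 2238 at 72 h over both treatments.

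**Figure D4:**
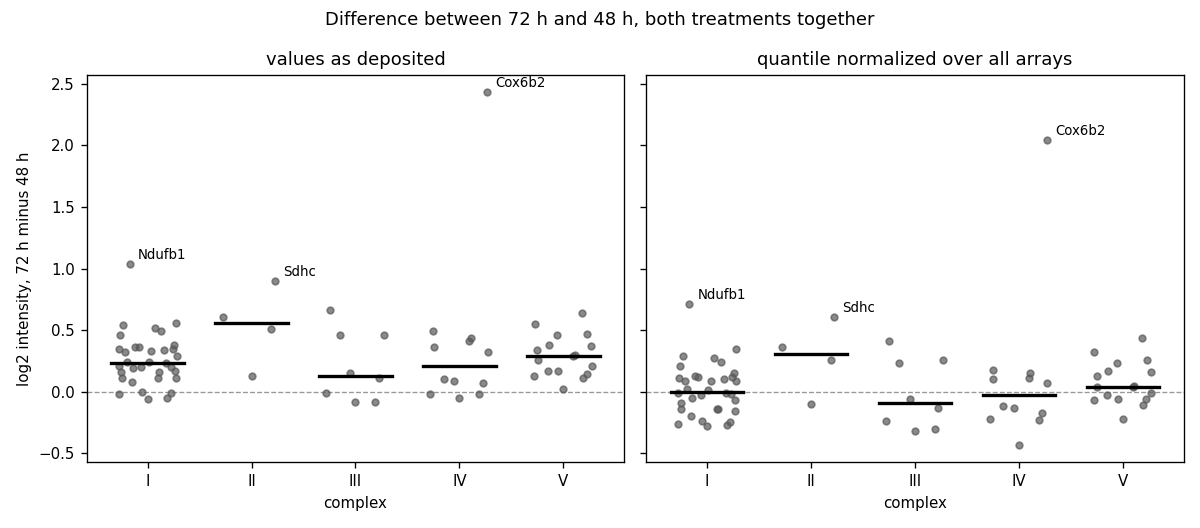
Difference in log2 intensity between 72 h and 48 h (72 h minus 48 h, mean over both treatments) for the 75 tested subunits by complex, as deposited and after quantile normalization over all 14 arrays, with bars at the medians. Cox6b2 is plotted at 2.43 and 2.04 against a 48 h level that was not shown to lie above background. The general shift above 0 as deposited is removed by quantile normalization by design.

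Other genes of mitochondrial energy metabolism were given for comparison. None of the genes of the lists that follow was called by limma at 72 h. Unadjusted p-values under 0.05 were found for 2 higher and 10 lower mitochondrial ribosomal proteins, 3 higher and 5 lower assembly factors, 1 higher and 1 lower gene of the TCA cycle and 2 higher genes of the rest of the chain, against 781 higher and 1156 lower of all 10916 genes, 53.8% of which had a lower mean. Of the 76 mitochondrial ribosomal proteins, all tested, 60 had a lower mean with Antagomir-31 at 72 h (median -0.048), and the smallest p belonged to Mrpl50 (-0.21, standard error 0.061, limma adjusted p = 0.10) and Mrpl14 (-0.19, standard error 0.061, limma adjusted p = 0.14). A lower mean was also found for 51 of these 76 at 36 h (median -0.011) and for 51 at 48 h (median -0.027). Of all genes, 49.4% had a lower mean at 36 h and 54.4% at 48 h. Of 51 assembly factors, 46 were tested and 28 had a lower mean (median -0.012), led by the complex II factors Sdhaf3 (-0.19, adjusted p = 0.14) and Sdhaf1 (-0.16, adjusted p = 0.14). Of the 18 genes of the TCA cycle and pyruvate dehydrogenase, 17 were tested and 9 were lower (median -0.0031), with Idh2 at -0.17 (adjusted p = 0.16) and Mdh2 at 0.10 (adjusted p = 0.24). Of 19 genes for mitochondrial DNA upkeep and regulators of mitochondrial genes, 17 were tested and 9 were lower (median -0.019), with Gabpb1 at -0.12 (adjusted p = 0.31) and Mterf3 at 0.08 (adjusted p = 0.42). Of 9 carriers of ATP and phosphate and channels of the outer membrane, 7 were tested and 4 were lower (median -0.006), with Vdac3 at 0.05 (adjusted p = 0.53) and Slc25a3 at 0.04 (adjusted p = 0.62). Of the 20 genes for the rest of the chain, among them those of mitochondrial DNA, 5 were tested. In these 5, cytochrome c (Cycs) was at 0.17 (standard error 0.044, limma adjusted p = 0.085) and its partner in complex III, Cyc1, at 0.11 (limma adjusted p = 0.26).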

How the data were processed

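Total RNA of Th1 rep cells was hybridized to Affymetrix mouse arrays, which the authors read with GCOS and normalized by RMA (affy R package). No version of these tools is named in the sources used here. The authors deposited linear intensities, which were put on the log2 scale here. Means and quartiles are alike within a time and differ between times, which points to a normalization per time. The study's present and absent calls were not used here. Of 45101 probe sets, 34945 had 1 gene symbol and were used, 932 had several, 9160 had none and 64 were controls. All 79 subunits matched RefSeq symbols, and 48 were on several probe sets.

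The probe set with the highest mean log2 gave the value of a gene. The brightest 60% of genes were fitted with limma 3.58.1 (R 4.3.3) as 6 groups by treatment and time, with Benjamini-Hochberg adjustment over 10916 genes and calls at an adjusted p under 0.05. Tables were made with Python 3.11.15. The subunits, the gene lists and the tests were chosen with earlier results of these data known. Subunits were named when called, when among the 2 with the smallest p at 72 h of a complex or the 5 of a contrast, when in an isoform family, when not tested, when highest or lowest in a complex, or when among the 3 with the largest change over time, and from other lists the 2 with the smallest p. Further subunits named were chosen after their values were seen. On simulated data of 10916 genes with the spread of these arrays, the 72 h comparison recovered 71% of 100 genes changed by 0.3 and 93% of 100 changed by 0.5 on the log2 scale, with 10 false calls. The simulated noise was independent between genes and arrays and held no shift shared by the genes of an array. These shares therefore do not tell how dependable the calls on the real arrays are. The alternatives were other filters, gene values, probe sets, scalings, spreads, an offset of 16, a replicate block and leaving out each of the 14 arrays. The crossed block and the fit of differences between probe sets were chosen after seeing the data.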

Additional observations from a re-analysis of the deposited data

How the results depend on the processing

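No subunit was called at 36 h or 48 h under any of the 27 alternatives. At 72 h, 3 subunits were called, and 0 without a filter on low values or with only the 72 h arrays, 5 at a mean log2 of at least 6, 10 with a trend in the prior variance, 6 with 16 added to the intensity, and 0 to 3 when 1 array was left out. The trend also called 1 subunit for 72 h against 36 h. The deviations of genes from the mean of their treatment and time, not the intensities, were correlated between arrays of both treatments. For same-numbered arrays these correlations lay between -0.164 and 0.054. At 36 h and 48 h, differently numbered arrays had values of the same size and opposite sign. This follows by arithmetic, since the deviations within each of these small groups mirror each other, and is not a separate observation. At 72 h, same-numbered arrays had -0.073 to 0.054 and differently numbered ones -0.07 to 0.056. With so few arrays, these correlations cannot settle whether replicate numbers pair the samples. With the replicate block, 0 subunits and 22 genes were called at 72 h. With numbers crossed at 48 h, chosen after seeing the data, 1 subunit and 33 genes were called. Over all genes, the 120 calls at 72 h became 14 without a filter, 283 at a mean log2 of at least 6, 60 with the mean of all probe sets, 72 with _at probe sets alone, 11 with the 72 h arrays alone, 422 with the trend, 256 with the offset and 9 to 107 with 1 array left out. With _at probe sets alone the median at 72 h was -0.094 in complex I (-0.003 otherwise), -0.044 in complex IV and -0.073 in complex V, and Cox7c at 36 h turned to 0.01. With the mean of all probe sets it was -0.03 in complex II, -0.079 in complex III and -0.021 in complex IV, and Sdhd turned to 0.10. The complex IV median, 0.002 as reported, was also -0.012 without a filter and after centring, 0.011 at a mean log2 of at least 6, -0.024 with the highest probe set per array and 0.014 after quantile normalization, so it has no settled sign. With 1 array left out, the medians were -0.13 to -0.069 in complex III, -0.014 to 0.025 in complex IV and -0.06 to -0.033 in complex V. The medians over time, -0.055 and 0.24, were 0.013 and 0.019 after quantile normalization, which removes a general shift by design.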
